A study of Mus musculus with 9 samples.

Results

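The neuregulin and ErbB receptor axis was followed in total RNA of mouse ventricles taken on postnatal day 7, through 10 of the 38293 genes in the count table: the 4 receptor genes Egfr, Erbb2, Erbb3 and Erbb4 and the 6 ligand genes Nrg1, Nrg2, Nrg4, Hbegf, Btc and Ereg. The genes were chosen by name as ligands and receptors of this family, with earlier results of these data known. The series holds 9 libraries, 5 from control littermates with the floxed Arid1a gene and no Cre (Arid1a f/f) and 4 from littermates that also carry the Cre transgene, αMHC-Cre;Arid1a f/f (Arid1a cKO), all on a C57B/6 J background, as the study writes it, and from pups of both sexes. In the cKO animals the α-myosin heavy chain promoter drives Cre in cardiomyocytes, so that the other cells of the ventricle keep Arid1a. No library carried the Cre transgene without the floxed gene, so effects of Cre and of the deletion cannot be told apart.

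The ErbB proteins are receptor tyrosine kinases that signal as pairs. ErbB2 binds no known ligand and is the preferred partner of the others, and ErbB3 has little kinase activity of its own, whereas ErbB4 and the EGF receptor bind ligand and are active kinases. In the heart, neuregulin-1 released by endocardial and endothelial cells acts on ErbB4 and ErbB2 of the cardiomyocyte, a signal known for its part in trabeculation and in cardiomyocyte growth and division.

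Depth and tissue were checked first. Library totals lay between 31011055 and 40073801 counts. Arid1a itself, the gene targeted, was measured at 128 to 148 CPM (counts per 1e6 counts of the TMM-scaled library) in the controls and at 100 to 113 CPM in the cKO libraries, a log2 change of -0.39 (SE 0.06, adjusted p = 0.00132), tested, as all adjusted p-values of single genes here, with the quasi-likelihood method of edgeR. Defining markers of cardiomyocytes were abundant, at a sum of 55355 to 65149 CPM over 10 genes in the controls and 51413 to 56837 CPM in the cKO libraries. Libraries also fell into sets by Rps3a3, a ribosomal protein gene listed at under 1 CPM in 2 of the controls (replicates 1 and 2) and 3 of the cKO libraries (1, 2 and 3), and at over 100 CPM in the others. No label names this split, and the set with high Rps3a3 holds 1 cKO library, so values within each set are given for the main results. With the low set alone the Arid1a change was -0.33 (adjusted p = 0.0822). Called genes were those with a fold over 1.5 whose adjusted p was under 0.05. By this rule 1030 of 15318 genes tested were called (6.72%), 614 higher (4.01%) and 416 lower (2.72%) in the cKO hearts, and the median log2 change of all tested genes was 0.01.

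In the cKO ventricles Erbb4 fell 2.01-fold, while Hbegf, Btc and Nrg1 rose. These 4 genes were the called ones among the 9 that passed the filter on low counts (44.4%, against 6.72% of all genes tested). Erbb2 and Erbb3 also rose, by less than 1.5-fold, which brought the number at an adjusted p under 0.05 to 6 (66.7%, against 16.3% of all genes, 8.25% higher and 8.03% lower). Egfr, Nrg4 and Ereg did not pass, and Nrg2 was too low to test. Nrg4 and Ereg passed the filter through the cKO libraries, with all 4 of these but 2 of the 5 controls over its threshold, so the shares among tested genes are a description only. The ranges of the groups did not overlap for Erbb2, Erbb3, Erbb4, Hbegf, Btc and Ereg, which was the case for 16.8% of all genes tested.

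**Figure D1:**
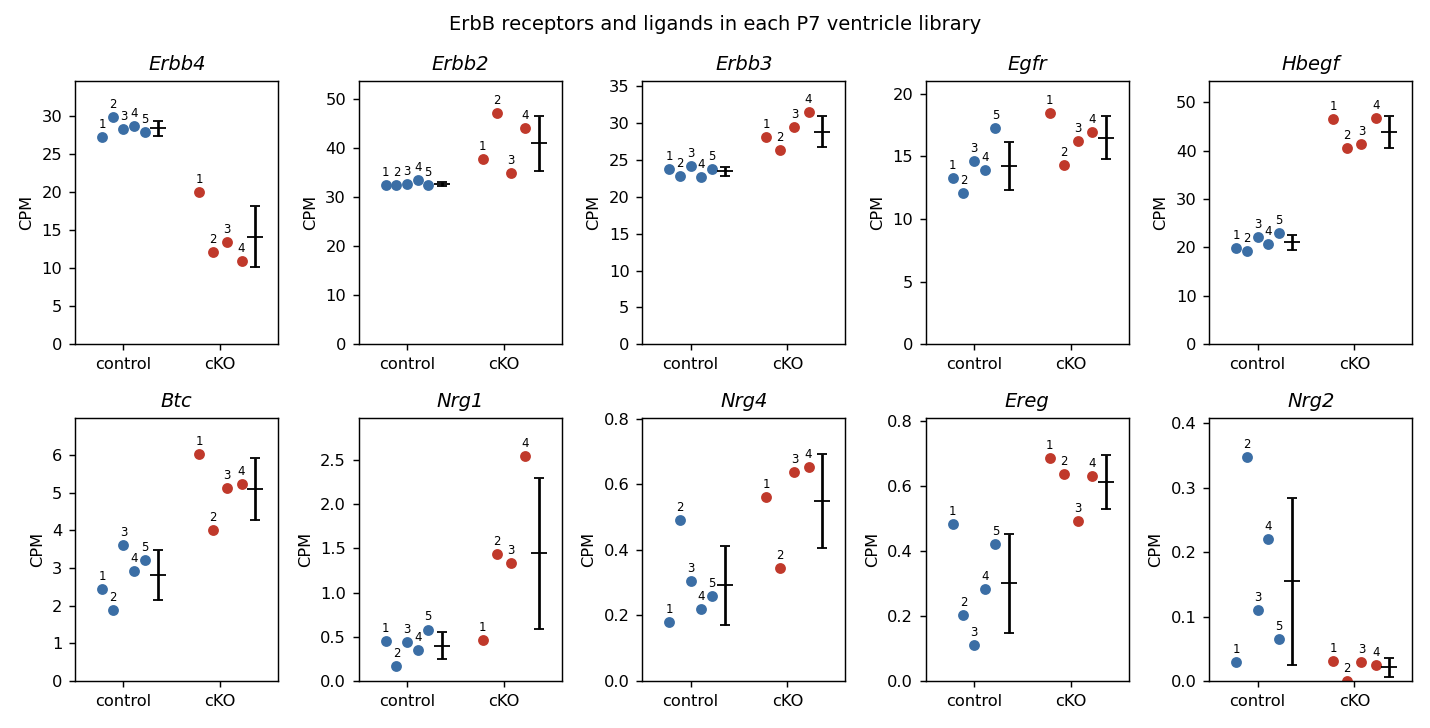
Level of each gene of the axis in CPM by library. Points are libraries numbered by replicate, bars are the mean with its SD (control, n = 5; cKO, n = 4), and the 4 Erbb4 points of the cKO group all lie under the lowest control at 27.3 CPM while the 4 Hbegf points all lie above the highest control at 23.0 CPM.

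Promoters of 5 of the 10 genes were found in the RefSeq table (assembly GRCm38.p6), each running from 250 bases before to 50 bases after an annotated start. Those of Erbb4, the receptor gene that fell, and of Erbb2 and Btc, which rose, are shown 5′ to 3′ on the strand of the gene. They lie at chr1:69108010-69108309 on the minus strand, chr11:98412234-98412533 on the plus strand and chr5:91402945-91403244 on the minus strand.
Erbb4: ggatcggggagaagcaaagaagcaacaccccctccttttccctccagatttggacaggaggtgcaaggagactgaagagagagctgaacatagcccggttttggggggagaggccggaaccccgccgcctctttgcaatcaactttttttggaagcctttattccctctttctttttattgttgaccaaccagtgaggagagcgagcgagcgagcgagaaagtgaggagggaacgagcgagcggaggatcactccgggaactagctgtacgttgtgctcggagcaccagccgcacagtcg
Erbb2: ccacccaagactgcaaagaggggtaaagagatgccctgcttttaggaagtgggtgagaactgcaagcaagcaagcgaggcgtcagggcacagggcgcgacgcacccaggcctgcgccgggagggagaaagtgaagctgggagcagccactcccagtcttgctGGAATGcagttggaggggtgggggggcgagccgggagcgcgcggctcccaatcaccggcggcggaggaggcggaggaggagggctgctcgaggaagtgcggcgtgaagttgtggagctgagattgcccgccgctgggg
Btc: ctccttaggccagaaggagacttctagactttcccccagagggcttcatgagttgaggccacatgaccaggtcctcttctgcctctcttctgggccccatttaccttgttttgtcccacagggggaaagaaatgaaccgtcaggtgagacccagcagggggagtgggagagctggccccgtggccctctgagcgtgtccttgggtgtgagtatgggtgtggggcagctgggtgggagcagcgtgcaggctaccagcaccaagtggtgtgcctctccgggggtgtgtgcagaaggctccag
Capitals mark a TEAD motif (GGAATG, read on either strand), 88 bases before the start of Erbb2. That motif occurred in 14.7% of the 32851 promoters in the table and in none of the 4 other promoters found for this axis. The AP-1 motif TGANTCA (7.81% of all promoters), the ERR motif AAGGTCA (4.72%), the MEF2 motif (CTA and TAG with any 4 bases between, 3.69%) and the TATA box TATAAA (13.6%), none of which is contained in another, matched on neither strand of the 5 promoters. Erbb2 had 21 CpG dinucleotides in this window and Erbb4 had 17, whereas Btc had 5 and the median promoter 7. A match of letters is a description of the sequence and was not tested as a binding site.

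Erbb4 (chr1:68032186-69108059, minus strand) encodes the receptor that binds neuregulins and can signal with ErbB2 or alone. Its level was 27.3, 29.9, 28.3, 28.7 and 27.9 CPM in control replicates 1 to 5 and 20.1, 12.1, 13.5 and 10.99 CPM in replicates 1 to 4 of the cKO group. The controls were close together, every cKO library was lower, and replicate 1 was the highest of the cKO libraries. With a mean of 28.4 ± 0.998 CPM (SD, n = 5) in the controls and 14.2 ± 4.06 CPM (SD, n = 4) in the cKO hearts, it had a log2 change of -1.01 (SE 0.15, adjusted p = 0.000729 by edgeR). On log2(CPM + 0.5) the difference was -0.92 within the low Rps3a3 set and -1.33 within the high set. In bulk tissue, fewer cells of a type and less RNA per cell cannot be told apart. The cardiomyocyte markers gave 0 of 10 genes called, against 6.72% of all genes tested (2.72% lower). Their median log2 change was -0.13, with 4 at an unadjusted p under 0.05 by edgeR (29.7% of all genes) and Pln alone lower at an adjusted p under 0.05. Their part in the Erbb4 result was examined as a difference per library, given after the ligands.

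Erbb2 (chr11:98412470-98437716, plus strand) encodes the partner receptor without a ligand. It was measured at 32.5, 32.4, 32.7, 33.4 and 32.4 CPM in the controls and at 37.8, 47.2, 34.9 and 44.1 CPM in replicates 1 to 4 of the cKO group. All cKO libraries lay above all controls, by little in replicate 3 and by most in replicate 2. Its mean rose from 32.7 ± 0.425 to 41.0 ± 5.62 CPM, a log2 change of 0.33 (SE 0.09, adjusted p = 0.021 by edgeR), with 0.28 and 0.42 within the low and high Rps3a3 sets. The call at adjusted p under 0.05 was lost in 5 of 18 alternative fits, among them those on the low Rps3a3 libraries alone (0.30, adjusted p = 0.297), without control replicate 5 (0.32, adjusted p = 0.0576), without cKO replicate 2 (0.25, adjusted p = 0.0589) and without cKO replicate 4 (0.29, adjusted p = 0.0683). Its end overlaps that of Mien1 on the opposite strand by a few bases, from position 98437708 to 98437716 (Mien1 log2 change 0.24, SE 0.07, adjusted p = 0.0314), and how strand was used in counting is not given in the sources used here.

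Erbb3 (chr10:128567523-128589652, minus strand) encodes the neuregulin receptor with a weak kinase. Its level was 23.8, 22.9, 24.1, 22.7 and 23.8 CPM in the controls and 28.1, 26.4, 29.5 and 31.5 CPM in the cKO libraries. The groups did not overlap, and the rise was similar in size to that of Erbb2: from 23.5 ± 0.619 to 28.9 ± 2.16 CPM, a log2 change of 0.30 (SE 0.07, adjusted p = 0.0116 by edgeR), with 0.26 and 0.41 within the sets. In the fit on the low Rps3a3 libraries alone Erbb3 no longer passed the adjusted p threshold (0.26, adjusted p = 0.203). Markers of Schwann cells, which also use ErbB3, summed to 15.3 to 20.4 CPM in the controls and 8.83 to 18.02 CPM in the cKO libraries over 8 genes, with 0 of the 7 tested called.

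Egfr (chr11:16752203-16918158, plus strand), the receptor of EGF, TGF-α and amphiregulin, was measured at 13.3, 12.1, 14.6, 13.9 and 17.3 CPM in the controls and at 18.4, 14.3, 16.3 and 16.9 CPM in the cKO libraries. The groups overlapped, since control replicate 5 was above 3 of the cKO libraries. The log2 change was 0.21 (SE 0.11, adjusted p = 0.24 by edgeR). Fibroblast markers, read here because fibroblasts express Egfr, summed to 4652 to 5307 CPM in the controls and 5838 to 6276 CPM in the cKO libraries. Of these, 4 of 10 genes (Tcf21, Col1a1, Col1a2 and Postn) were higher at an adjusted p under 0.05 (8.25% of all genes) and 0 were called (6.72% of all genes). Col1a1 lost that threshold in 7 of 18 alternative fits, among them those without control replicate 3 or 5 and without cKO replicate 1, 2 or 3 (0.38 to 0.55, adjusted p = 0.0529 to 0.0946).

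Per kilobase of annotated exon the makeup of the receptor transcripts shifted. Over the 4 receptor genes, Erbb4 made up 16.3, 17.9, 16.5, 16.9 and 16.2% of the summed CPM per kb in the controls and 10.7, 6.25, 7.73 and 5.53% in the cKO libraries. Erbb2 was the largest share in every library, with 45.7 ± 0.816% in the controls and 51.4 ± 4.85% in the cKO hearts. Erbb3 went from 28.4 ± 0.647 to 31.5 ± 2.85% and Egfr from 9.14 ± 1.125 to 9.55 ± 1.16%. The summed level of the receptors was 13.7 ± 0.187 CPM per kb in the controls and 15.3 ± 0.84 CPM per kb in the cKO hearts. These shares are descriptions and were not tested.

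**Figure D2:**
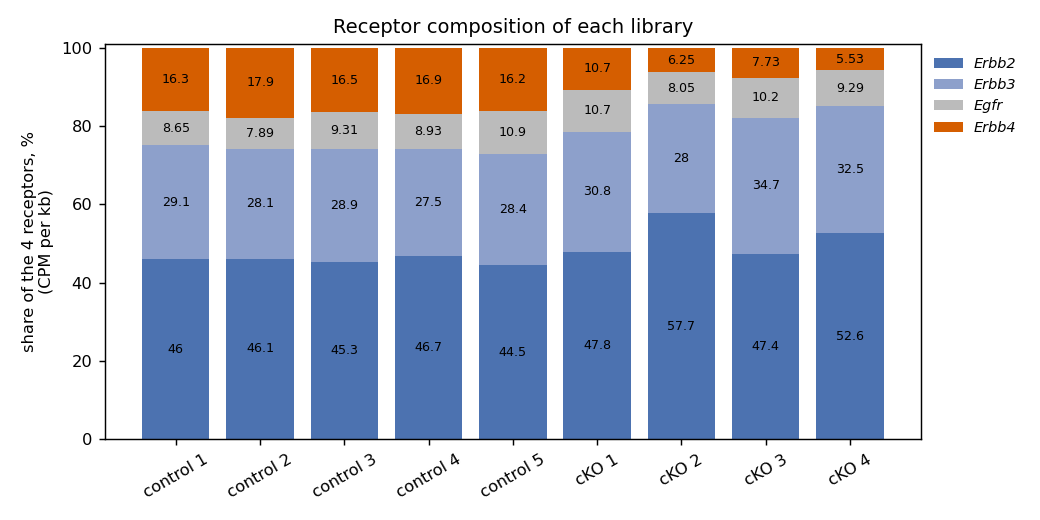
Share of each receptor gene in the summed CPM per kb of Egfr, Erbb2, Erbb3 and Erbb4, in percent, 1 stacked bar per library. Erbb4 takes 16.2 to 17.9% in the 5 control libraries and 5.53 to 10.7% in the 4 cKO libraries.

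Of the neuregulin genes, Nrg1 (chr8:31814551-32884029, minus strand), which encodes the main cardiac ligand of ErbB4, rose from a low level. It had 15, 6, 16, 11 and 18 counts in the controls and 15, 54, 46 and 105 counts in cKO replicates 1 to 4, or 0.451, 0.174, 0.443, 0.346 and 0.582 CPM against 0.467, 1.43, 1.33 and 2.54 CPM. Replicate 1 of the cKO group lay inside the range of the controls and replicate 4 was the highest. The mean rose from 0.399 ± 0.151 to 1.44 ± 0.851 CPM, a log2 change of 1.86 (SE 0.44, adjusted p = 0.0126 by edgeR). Within the low Rps3a3 set alone, where cKO replicate 4 is absent, the fitted change was 1.79 with an adjusted p of 0.162, so the call was lost there. On log2(CPM + 0.5), a scale that understates changes of genes this low, the differences within the low and high sets were 0.91 and 1.68.

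Nrg4 (chr9:55220222-55326844, minus strand), a ligand of ErbB4 best known from adipose tissue, had 6, 17, 11, 7 and 8 counts in the controls and 18, 13, 22 and 27 counts in the cKO libraries. The groups overlapped, with control replicate 2 above cKO replicate 2 on the CPM scale (0.492 and 0.345 CPM). The log2 change was 0.90 (SE 0.35, adjusted p = 0.103 by edgeR), and without control replicate 2 it was 1.17 with an adjusted p of 0.0376. Its 3′ end overlaps Fbxo22, a far more abundant gene on the opposite strand (41.9 ± 2.69 CPM in the controls and 42.1 ± 2.82 CPM in the cKO hearts), so that reads of the 2 genes could be mixed if strand was not used.

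Nrg2, a neuregulin gene on chromosome 18 known from the nervous system, had 1, 12, 4, 7 and 2 counts in the controls and 1, 0, 1 and 1 counts in the cKO libraries. The groups overlapped and the gene did not pass the filter, so no test or fold is given. The 0 of cKO replicate 2 allows up to 0.0795 CPM, a limit of 3 counts that covers counting error only. Nrg3, the remaining neuregulin gene, had 0 counts in all 9 libraries, which allows up to 0.0726 to 0.097 CPM in each.

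Among ligands that bind the EGF receptor and ErbB4 alike, Hbegf, on chromosome 18, encodes heparin-binding EGF-like growth factor. It was measured at 19.95, 19.3, 22.1, 20.8 and 23.0 CPM in the controls and at 46.6, 40.4, 41.4 and 46.7 CPM in the cKO libraries. Every cKO library was well above every control and the spread within each group was small. The mean rose from 21.02 ± 1.502 to 43.8 ± 3.35 CPM, a log2 change of 1.06 (SE 0.08, adjusted p = 3.23e-06 by edgeR), or 2.08-fold. The differences within the low and high Rps3a3 sets were 1.10 and 1.08, and the gene was past the threshold in 18 of 18 alternative fits.

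Btc (chr5:91357261-91402994, minus strand) encodes betacellulin. It was measured at 2.44, 1.88, 3.60, 2.93 and 3.20 CPM in the controls and at 6.03, 4.003, 5.13 and 5.23 CPM in the cKO libraries. The groups did not overlap, although cKO replicate 2 came close to control replicate 3. Its log2 change was 0.86 (SE 0.19, adjusted p = 0.0104 by edgeR), or 1.81-fold, with 1.05 and 0.62 within the low and high sets. Ereg (chr5:91074622-91093646, plus strand), which encodes epiregulin, had 16, 7, 4, 9 and 13 counts in the controls and 22, 24, 17 and 26 counts in the cKO libraries, or 0.300 ± 0.152 and 0.611 ± 0.0824 CPM. The lowest cKO library, at 0.493 CPM, lay just above the highest control at 0.481 CPM, and the log2 change of 1.03 (SE 0.37) did not pass (adjusted p = 0.0816 by edgeR). Without control replicate 1 it was 1.27 and passed (adjusted p = 0.0416).

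**Figure D3:**
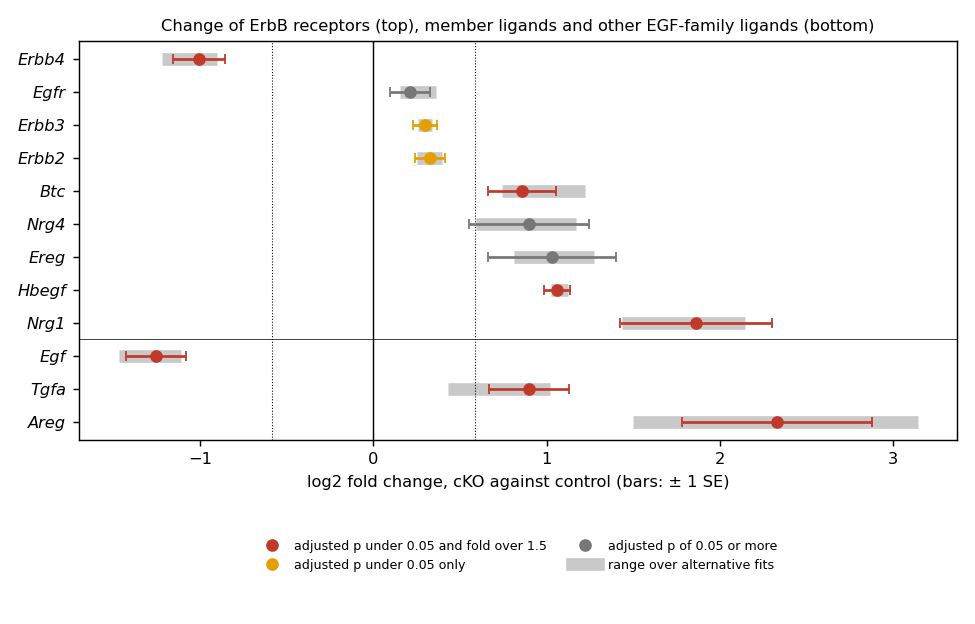
Log2 fold change of each tested ligand and receptor gene, cKO against control, with 1 SE, from edgeR. Grey bars give the range over the alternative fits, dotted lines mark a fold of 1.5, and Erbb4 at -1.01 lies on the lower side while Hbegf (1.06), Btc (0.86) and Nrg1 (1.86) lie on the higher side.

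The 5 further ligand genes of the EGF family were read beside these. Of the 3 that could be tested, Egf fell and Tgfa and Areg rose. Egf, the founding ligand of the EGF receptor, was measured at 7.88, 11.04, 8.25, 8.71 and 8.28 CPM in the controls and at 3.79, 2.52, 3.94 and 4.53 CPM in the cKO libraries, without overlap, a log2 change of -1.26 (SE 0.17, adjusted p = 0.000456 by edgeR). Tgfa, which encodes TGF-α, went from 2.57 ± 0.615 to 4.78 ± 1.53 CPM (0.90, SE 0.23, adjusted p = 0.0196). Areg, which encodes amphiregulin, went from 0.149 ± 0.148 to 0.768 ± 0.302 CPM (2.33, SE 0.55, adjusted p = 0.0126), with cKO replicate 2 at 0.318 CPM under control replicate 2 at 0.406 CPM. The call of Tgfa was lost without control replicate 5 (0.86, adjusted p = 0.052), without cKO replicate 4 (0.64, adjusted p = 0.0652) and, like that of Areg, with the low Rps3a3 libraries alone (0.43 and 1.5, adjusted p = 0.333 and 0.297). Leaving out 1 library gave Areg 2.05 to 3.14, the highest without control replicate 2. Areg passed the filter through the cKO libraries, since 1 control library was over its threshold. Epgn, the gene of epigen, was too low to test, at 0.256 ± 0.0748 and 0.285 ± 0.0762 CPM.

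Btc, Ereg, Areg and Epgn lie together on chromosome 5 (GRCm38), within 375.5 kb in which the count table holds 5 genes. The other one, the small nuclear RNA gene Gm23092, had 0 counts in every library. Btc had the highest mean CPM per kb of the 4 ligand genes in each group, and Btc and Areg were called while Ereg did not pass and Epgn was not tested.

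Levels between genes were compared per kb of exon. In the controls Erbb2 was the highest at 6.27 ± 0.0816 CPM per kb, followed by Hbegf at 4.35 ± 0.311 and Erbb3 at 3.90 ± 0.103, whose ranges overlapped. Erbb4 at 2.30 ± 0.0808 and Egfr at 1.26 ± 0.171 came next, each apart from its neighbours. Egf (0.783 ± 0.112), Btc (0.622 ± 0.148) and Tgfa (0.396 ± 0.0948) overlapped from one to the next, and so did Epgn, Areg, Ereg, Nrg2, Nrg4 and Nrg1, with means from 0.142 down to 0.0386 CPM per kb, although every control value of Epgn was above every one of Nrg4 and Nrg1. In the cKO hearts the order of the upper genes differed. Hbegf came first at 9.06 ± 0.694 and overlapped Erbb2 at 7.87 ± 1.08. Erbb4 at 1.15 ± 0.329 CPM per kb was under Egfr (1.45 ± 0.152) in each cKO library, though the ranges overlapped through the Erbb4 value of replicate 1. The range of Erbb4 also overlapped that of Btc (1.13 ± 0.185). Nrg1 had a mean of 0.139 ± 0.0822 CPM per kb there.

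**Figure D4:**
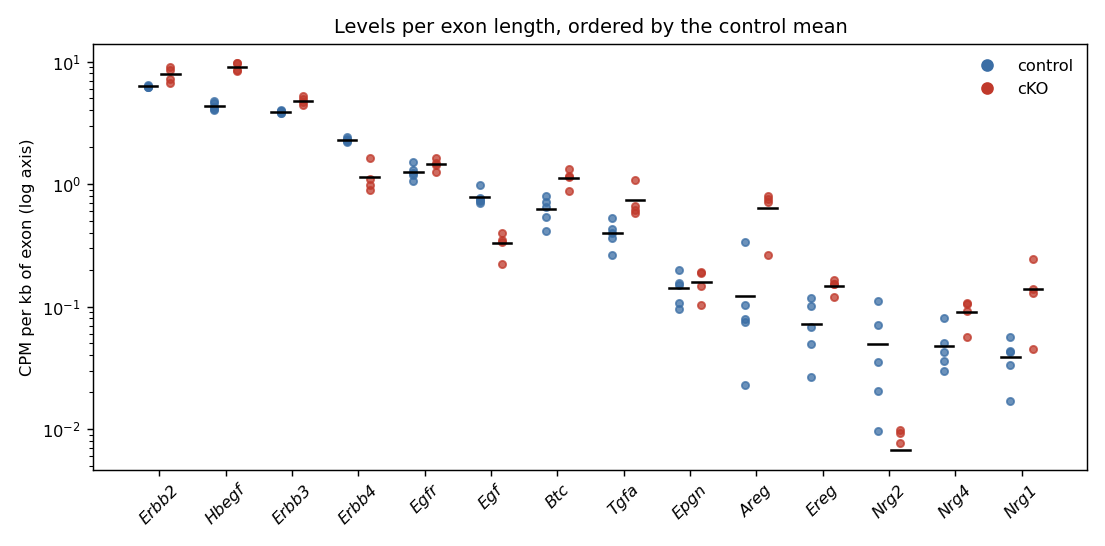
Level of each ligand and receptor gene in CPM per kb of annotated exon on a log axis, 1 point per library and a bar for the group mean. Nrg3 (0 counts throughout) and the 0 of Nrg2 in cKO replicate 2 are not on the log axis, and Erbb4 moves from 2.30 in the controls to 1.15 CPM per kb in the cKO hearts while Hbegf moves from 4.35 to 9.06.

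Summed over the 11 ligand genes, the level was 6.62 ± 0.249 CPM per kb in the controls (6.31 to 6.96) and 12.4 ± 1.31 CPM per kb in the cKO hearts (10.8 to 13.7). Hbegf carried most of it, with 65.6 ± 2.61% of the ligand sum in the controls and 73.1 ± 3.09% in the cKO hearts. The share of Egf went from 11.9 ± 1.87 to 2.62 ± 0.404%, and that of Btc was 9.35 ± 2.01 and 9.05 ± 0.899%.

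To ask whether the receptors moved apart from each other and from the marker genes of the cells that use them, 6 differences of log2(CPM + 0.5) were examined with an exact permutation test, two-sided, over every split of the 9 libraries into 5 and 4, which cannot give a p under 0.00794. Erbb4 minus Erbb2 was -0.20 ± 0.05 in the controls and -1.53 ± 0.51 in the cKO hearts, a shift of -1.33 (exact p = 0.00794, adjusted over the 6 differences 0.0159). Erbb3 minus Erbb2 shifted by -0.02 (exact p = 0.825, adjusted 0.825). Relative to the mean of the 10 cardiomyocyte markers, Erbb4 shifted by -0.88 and Erbb2 by 0.44 (exact p = 0.00794 and adjusted 0.0159 for each). These markers had a median log2 change of -0.13, against 0.33 for Erbb2 itself, so the shift of Erbb2 also holds their decrease. Nrg1 relative to 10 endothelial markers shifted by 1.04 (exact p = 0.0159, adjusted 0.0238). This shift no longer passed without control replicate 1, 2, 3 or 4 (exact test, adjusted 0.0857) and without cKO replicate 2, 3 or 4 (adjusted 0.0536). The endothelial markers summed to 1864 to 2016 CPM in the controls and 1818 to 1973 CPM in the cKO libraries. Of these, 0 of 10 were called (against 6.72% of all genes), Tek was lower at an adjusted p under 0.05, and the median log2 change was -0.02. The 6 endocardial markers summed to 162 to 199 CPM in the controls and 203 to 226 CPM in the cKO libraries. Among them 1 was called (Cytl1, against 4.01% of all genes) and 3 were past the adjusted p threshold (against 8.25%), all higher. The part of the endocardial markers in the Nrg1 result was not tested. Egfr relative to 10 fibroblast markers shifted by 0.08 (exact p = 0.492, adjusted 0.59). With labels permuted within the Rps3a3 sets (40 splits, smallest p 0.025), the shift was -1.44 for Erbb4 minus Erbb2, -0.93 for Erbb4 and 0.52 for Erbb2 against the cardiomyocyte markers and 1.30 for Nrg1 against the endothelial markers, each with an adjusted p of 0.0375 in the exact permutation test.

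Other markers of the tissue gave 0 of 8 genes called for mural cells and 0 of 10 for macrophages by edgeR, against 6.72% of all genes tested. At an unadjusted p under 0.05 there were 3 and 0, as were 29.7% of all genes tested. The median log2 changes were 0.13 and 0.39, against 0.01 for all genes tested. Of the 7 epicardial markers tested Tbx18 was higher (0.59, called here but under a 1.5-fold change without control replicate 1 or 2 or cKO replicate 1 or 4, at 0.48 to 0.55) and Wt1 lower (-0.40, adjusted p = 0.0128), and the list had a median of -0.40. Of the 3 lymphocyte and 5 erythroid markers tested 0 were called, with 0 and 2 at an unadjusted p under 0.05 and medians of 0.12 and 0.49. Erythroid markers summed to 387 to 764 CPM in the controls and 609 to 950 CPM in the cKO libraries.

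Proteases that shed or trim the ligands and receptors gave 1 of 21 genes called higher and 1 lower (9.52%, against 6.72% of all genes tested), with a median log2 change of 0.03. Bace1, the β-secretase that also cleaves neuregulin-1, fell from 91.8 ± 6.94 to 49.0 ± 1.92 CPM (-0.91, SE 0.07, adjusted p = 5.39e-06 by edgeR). Its relative Bace2 rose from 15.8 ± 1.84 to 24.4 ± 4.72 CPM (0.63, SE 0.13, adjusted p = 0.00573), and was under 1.5-fold, so not called, without control replicate 1 (0.57) or cKO replicate 4 (0.48). Adam19, a metalloprotease that can process neuregulin and the most abundant of the list per kb, rose by less than 1.5-fold (0.47, SE 0.07, adjusted p = 0.000525), and at 0.39 it fell just short with the low Rps3a3 libraries alone (adjusted p = 0.0508).

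Genes that restrain or turn over the receptors gave 1 of 25 called higher and 1 lower (8%, against 6.72% of all genes), with a median of -0.01. Lrig1, a membrane protein that lowers ErbB receptor levels, fell from 48.9 ± 4.49 to 29.3 ± 1.91 CPM (-0.74, SE 0.08, adjusted p = 8.87e-05). Cbl, a ubiquitin ligase of the EGF receptor, rose from 7.53 ± 1.38 to 11.7 ± 0.284 CPM (0.64, SE 0.13, adjusted p = 0.00493). The most abundant of them per kb, the ubiquitin ligase gene Nedd4, had a log2 change of 0.10 (adjusted p = 0.409).

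Adaptors and partners of the receptors gave 1 of 29 called (3.45%, against 6.72%), with a median of -0.04. The called gene was Plcg2, a phospholipase C best known from blood cells, which rose from 21.98 ± 2.41 to 35.4 ± 4.01 CPM (0.69, SE 0.10, adjusted p = 0.000637), and was under 1.5-fold with the low Rps3a3 libraries alone (0.51). The chaperone gene Hsp90ab1, the most abundant per kb, had a log2 change of -0.09 (adjusted p = 0.284).

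In the PI3K-AKT module 1 of 20 genes was called (5%, against 6.72% of all genes), lower (2.72% of all genes), and at an adjusted p under 0.05 alone 4 were lower and 0 higher (8.03% and 8.25% of all genes), with a median of -0.10. Akt2, the AKT kinase tied to insulin signalling, fell from 117.8 ± 6.23 to 78.4 ± 3.76 CPM (-0.59, SE 0.06, adjusted p = 5.31e-05). Its fold lies at the threshold of 1.5, and in 6 of 18 alternative fits, among them those without control replicate 1 or 2 or cKO replicate 1 or 4, the change was -0.58 to -0.56 and not called. Akt1, the most abundant of the module per kb, fell by less than 1.5-fold (-0.45, SE 0.11, adjusted p = 0.0183), and its groups overlapped. Akt1 no longer passed the adjusted p threshold without cKO replicate 3 (-0.42, adjusted p = 0.0585) or 4 (-0.42, adjusted p = 0.0541) and with the low Rps3a3 libraries alone (-0.60, adjusted p = 0.0604). In the RAS-ERK module 0 of 19 genes was called by edgeR, 3 had an adjusted p under 0.05 and 8 of the 19 an unadjusted p under 0.05 (29.7% of all genes), with a median of -0.03. Mapk3, which encodes ERK1, had a log2 change of -0.09 (adjusted p = 0.399).

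The genes that respond to ERK signalling gave 6 of 23 called higher and 0 lower (26.1%, against 4.01% of all genes called higher), with a median of 0.40. The list was chosen with earlier results of these data known, so its share is a description only. Leaving out 1 library gave 4 to 9 called higher. Egr2, an immediate early transcription factor gene, rose from 1.14 ± 0.418 to 4.56 ± 1.62 CPM (2.0, SE 0.30, adjusted p = 0.000796), and its relative Egr1 rose from 29.98 ± 8.58 to 67.7 ± 23.4 CPM (1.17, SE 0.27, adjusted p = 0.0184). Phlda1 rose from 12.9 ± 1.09 to 23.1 ± 6.56 CPM (0.85, SE 0.17, adjusted p = 0.00572), with overlap between the groups. The phosphatase gene Dusp4 (0.81, SE 0.20, adjusted p = 0.0163) and the ETS factor gene Etv4 (0.81, SE 0.23, adjusted p = 0.0307) rose as well. Etv4 passed in 10 of 18 alternative fits and lost its call without control replicate 2, 3, 4 or 5 (0.75 to 0.85) and without cKO replicate 2 (0.76, adjusted p = 0.0814) or 4 (0.57, adjusted p = 0.101), and Dusp4 lost it without cKO replicate 4 (0.69, adjusted p = 0.0551). With the low Rps3a3 libraries alone Egr2 (1.71), Egr1 (1.17), Phlda1 (0.70), Etv4 (0.47) and Dusp4 (0.89) had adjusted p-values of 0.103 to 0.452, and of the 23 genes 0 were called higher and 1 lower. The sixth called gene was Myc (0.61, SE 0.14, adjusted p = 0.0109), named here after its value was seen. Cyclin D1 (Ccnd1), the most abundant of the list per kb, had a log2 change of 0.34 (SE 0.13, adjusted p = 0.114), and of 0.45 without control replicate 1 (adjusted p = 0.0196). A link between these changes and those of the ligands and receptors was not tested.

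**Figure D5:**
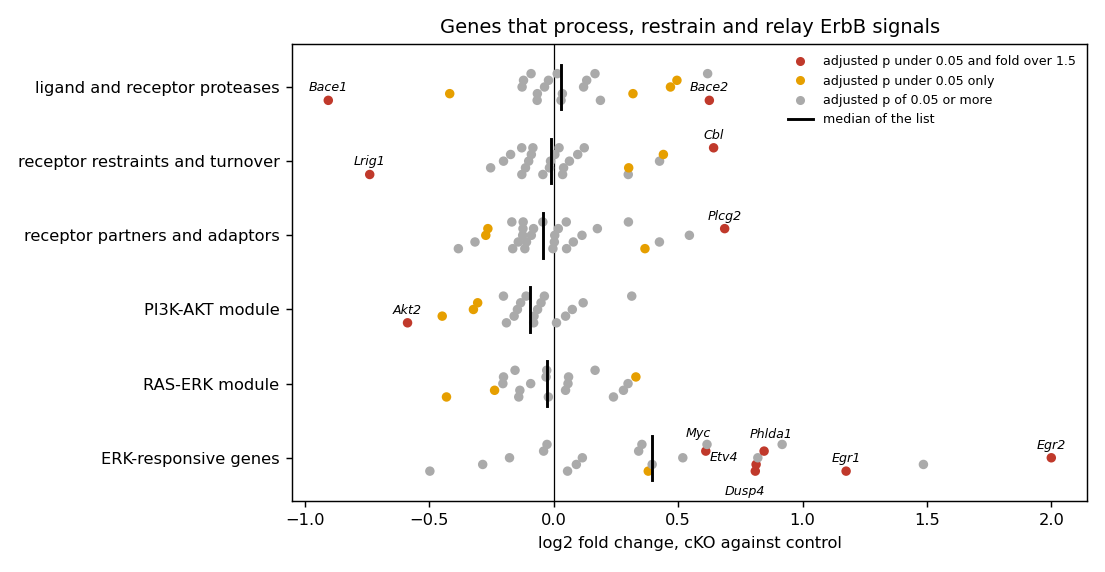
Log2 fold change of each tested gene in the lists of the pathway, cKO against control, 1 dot per gene, with a black line at the median of the list. The medians lie between -0.10 and 0.03 except for the ERK-responsive genes (0.40), where Egr2 is the highest dot at 2.0.

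Genes whose pattern over the 9 libraries was most like that of each called ligand or receptor gene were found among 11064 genes by the root mean square difference of centred log2 CPM. For Erbb4 these were Fbxw7 (0.112), which encodes a ubiquitin ligase subunit and went from 89.8 to 43.9 CPM, and Gfpt2 (0.128). For Hbegf the nearest was the glycerol kinase gene Gk (0.0953), which went from 54.1 to 112.9 CPM. Hif3a (0.168) and Gk (0.174) were nearest to Btc, and Thbs4 (0.308) and Col12a1 (0.372) to Nrg1. Thbs4, which encodes thrombospondin-4, went from 12.0 to 55.5 CPM, and the distances from Nrg1 were the largest of these.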

How the data were processed

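RNA of P7 ventricles (5 control and 4 cKO libraries, grouped by their labels) had been made by the authors into stranded poly(A) libraries and sequenced as single-end reads. The authors deposited raw counts per gene in 1 table (38293 Ensembl genes) with no normalization. The submitters' processing notes name STAR 2.4.2a, HTSeq 0.6.1 and mm10; the counting annotation and strand setting are not given in the sources used here. The table held 0 other sample columns. Symbols, exon lengths and coordinates came from GENCODE M21 on GRCm38, where 36345 identifiers were found. A legend and the methods of the study give unequal numbers of controls; each library labelled as one was used. Labels do not say which animal each library came from, so p-values measure the spread between these libraries.

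Counts were tested in R 4.3.3 with edgeR 4.0.16 (filterByExpr with a minimum count of 10, TMM, robust quasi-likelihood F test, genotype only, two-sided, Benjamini-Hochberg over 15318 genes). The SE of a log2 change is its size over the root of F. Scripts were tested on simulated data. Alternatives were DESeq2 1.42.0, RLE and upper-quartile scaling, no filter or a mean of 1 CPM, a replicate block, the Rps3a3 set as a term or its low libraries alone, Xist level as a covariate, a pseudocount of 0.1 for the single-library differences, and leaving out each library. Genes named by rule are the 10 of the axis, the other EGF-family ligands, Arid1a, up to 5 called genes and the most abundant gene of each list, and the 2 genes of at least 5 CPM nearest to each called member. Outside this rule, some marker genes at an adjusted p under 0.05 by edgeR, neighbours of ligand or receptor genes in the genome, Rps3a3, Xist and Myc are named. The genes of the axis and the lists were chosen with earlier results of these data known. The result of 1 gene that this rule names is not reported here.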

Additional observations from a re-analysis of the deposited data

Results flagged for a closer look

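In 42 groups of values tested for a sample far from the others (Dixon's criterion), 4 stood out, where chance would give about 2.1. All were in ligand genes outside the 10 of the axis. Egf was at 11.04 CPM in control replicate 2 and at 7.88 to 8.71 CPM in the other controls. Tgfa was at 7.04 CPM in cKO replicate 4 and at 3.79 to 4.29 CPM in the other cKO libraries. Areg was at 0.406 CPM in control replicate 2, against 0.0277 to 0.126 CPM in the other controls, and at 0.318 CPM in cKO replicate 2, against 0.869 to 0.964 CPM in the other cKO libraries.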

How the results depend on the processing

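Of 319 alternative values, 282 kept their direction and side of the threshold, 27 lost the threshold, 3 gained it, 6 counts moved by over 1.5 times and 1 changed sign. Erbb4, Hbegf and Btc stayed past the adjusted p threshold in all 18 fits. With the low Rps3a3 libraries alone, Nrg1 (1.79), Erbb2 (0.30) and Erbb3 (0.26) no longer passed (adjusted p = 0.162, 0.297 and 0.203 by edgeR) and 620 genes were called instead of 1030. Without a fold threshold 2493 genes were called, and 6 genes of the axis. Xist as a covariate brought Ereg past the threshold (1.17, adjusted p = 0.0413). Of the ERK-responsive genes 0 were called higher and 1 lower with the low Rps3a3 libraries alone, an alternative chosen after seeing the data, and 4 to 9 higher on leaving out 1 library. With the Rps3a3 set as a term, 2 adaptor genes were called higher and 1 ERK-responsive gene lower. Same replicate numbers did not pair the samples: correlations of deviations were 0.01 to 0.23 and 0 of 4 cKO libraries correlated best with the control of their number. With the replicate number as a block (replicate block), the pairing gave 888 called genes, Erbb2 at 0.31 (adjusted p = 0.0635), Erbb3 at 0.30 (adjusted p = 0.0529), Areg at 2.27 (adjusted p = 0.089) and Etv4 at 0.75 (adjusted p = 0.0781), all past the threshold without it. Leaving out 1 library gave Erbb2 at 0.25 to 0.40, Nrg4 at 0.77 to 1.17 and Ereg at 0.81 to 1.27 (past the threshold without control replicate 1, adjusted p = 0.0416). It gave shifts of -1.54 to -1.19 for Erbb4 minus Erbb2, -1.07 to -0.80 for Erbb4 and 0.38 to 0.52 for Erbb2 against the cardiomyocyte markers, and 0.77 to 1.34 for Nrg1 against the endothelial markers. These lost the threshold without control replicate 1, 2, 3 or 4, at an adjusted p of 0.0571 for the receptors and 0.0857 for Nrg1. With 4 against 4 libraries the exact test cannot give a p under 0.0286, which each receptor shift reached, so for the receptors this says nothing about stability. Nrg1 also lost it without cKO replicate 2, 3 or 4, where it was 0.0536. Erbb3 minus Erbb2 lay between -0.11 and 0.09 and changed sign without cKO replicate 2 (0.0903). The cause was not tested. Depth limits the values of Nrg1, Nrg2, Nrg3, Nrg4, Ereg, Areg and Epgn.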

Other observations

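Among the cKO libraries, replicate 1 stood nearest to the controls for Erbb4 and Nrg1 and not for the other tested genes of the axis. It had the highest Erbb4 (20.1 CPM, against 10.99 to 13.5 CPM in the other 3) and the lowest Nrg1 (0.467 CPM, against 1.33 to 2.54 CPM), while its Hbegf (46.6 CPM) and Btc (6.03 CPM) were among the highest of the group. Without this library the log2 change of Nrg1 was 2.15 by edgeR (adjusted p = 0.0021). The number of genes called over the whole table was 1171 without it and 1030 with it.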
